A study of Homo sapiens with 6 samples.

Results

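Complex I (NADH:ubiquinone oxidoreductase) is the entry enzyme of the mitochondrial respiratory chain, and the transcripts described here are those of its nuclear genes in OE33 cells with and without APX2009. The members were every protein-coding gene of the count table whose GENCODE 29 symbol is NDUFA, NDUFB, NDUFC, NDUFS, NDUFV or NDUFAF with a number, with NDUFAB1 added. This rule used names alone, but the group itself was chosen with earlier results of these data known. The rule gave 48 of the 58051 genes in the table. They are 37 subunits, 8 assembly factors, NDUFA4 with its paralogue NDUFA4L2, and the read-through gene NDUFC2-KCTD14. NDUFC2-KCTD14 held 2, 0 and 1 counts in the untreated libraries and 0 in each treated library and was not tested, so 47 members entered the test.

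OE33 is an established human line from an adenocarcinoma of the oesophagus, grown here in RPMI 1640 with serum. Polyadenylated RNA was sequenced from 3 cultures left untreated and 3 exposed for 24 h to APX2009 at 15 µM, and the series calls the cultures of a group independent biological replicates. APX2009 is a small molecule that inhibits the redox function of APE1, which is also a DNA repair enzyme. There was 1 line, 1 dose and 1 time, the control had no named vehicle, and no inactive analogue was among the samples used here.

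Complex I takes electrons from NADH in the mitochondrial matrix, passes them along iron-sulphur clusters to ubiquinone, and pumps protons across the inner membrane. Its matrix arm has an N module, where NADH is oxidised, and a Q module, where ubiquinone is reduced. Its membrane arm has a proximal and a distal part and carries the mitochondrially encoded ND subunits. The core subunits, shared with bacteria, do the catalysis, the supernumerary subunits surround and stabilise them, and the assembly factors help to build the enzyme and then leave it.

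The libraries held 21158750 to 26111656 gene counts. APX2009 replicate 1 stood apart: 25015 genes had a count there, against 21845 to 22446 in the other 5 libraries, and processed pseudogenes took 0.319% of its counts, against 0.135% to 0.144%. Its synthetic ERCC spike-ins came to 0.316% of gene counts, against 0.739% and 0.758% in the other treated libraries and 0.482% to 0.567% in untreated ones. The calls and list counts were therefore also made without that library. The epithelial markers fixed for the line (EPCAM, KRT8, KRT18, KRT19, CDH1 and ERBB2) summed to 26025 to 26560 CPM (counts scaled by library size) in untreated and 14579 to 17865 CPM in treated libraries, with 5 of 6 lower and EPCAM not. Fibroblast markers summed to 8.29 to 12.6 CPM untreated and 9.12 to 19.7 CPM treated, leukocyte markers to 6.06 to 6.73 and 6.66 to 8.08 CPM with CD3E at 0, and endothelial markers to 0.0442 to 0.438 and 0.0889 to 2.30 CPM. Nearly all of the untreated fibroblast sums was COL1A1, at 12.6, 8.29 and 9.51 CPM. The highest fibroblast and endothelial sums were those of APX2009 replicate 1, where COL3A1, DCN and COL1A2 were at 1.84, 1.61 and 0.996 CPM and at 0 in the other 5 libraries. Of the leukocyte markers, CD68 rose by 1.19 on the log2 scale (edgeR adjusted p = 0.00513). The part of these differences in the results below was not tested.

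Of the 47 members tested, 9 rose and 10 fell with APX2009 (edgeR quasi-likelihood test, Benjamini-Hochberg adjusted p under 0.05 over all 14773 genes tested), and 28 did not pass. Over all genes tested 34.7% passed, 17.2% higher and 17.4% lower, so the members' share lay near the background. The 48 members' summed counts were 0.172%, 0.177% and 0.176% of the untreated libraries and 0.180%, 0.169% and 0.163% of the treated ones. The median log2 change of the members was 0.03 and that of all genes tested 0.02. The log2 differences ran from -0.51 to 0.63 over all 47 members, and the largest change that passed was a 1.54-fold rise of NDUFB8. In bulk RNA, fewer cells with a transcript and less of it per cell cannot be told apart. Without untreated replicate 2 the calls were 5 higher and 6 lower, where 24.1% of all genes passed (12.0% higher and 12.1% lower), and without untreated replicate 3 they were 4 and 7, where 23.1% passed (11.3% and 11.9%). Scaled by the ERCC spike-in total in place of TMM, 0 of the 47 passed by edgeR (also 0 at an unadjusted p under 0.05), where 0.921% of all genes did (0.873% higher and 0.0474% lower), though none of the 19 turned direction.

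The members did not move together. Their calls are given by role, where 17.2% of all genes tested rose and 17.4% fell. Whether the roles differ from each other or from that share was not tested. Of the 7 nuclear core subunits 5 fell and none rose, with a median log2 change of -0.33, and DESeq2 and limma voom gave the same counts. Of the 30 supernumerary subunits 8 rose and 5 fell (median 0.09), and of the 8 NDUFAF assembly factors 1 rose and none fell (median 0.18). Neither NDUFA4 nor NDUFA4L2 passed. The 3 treated values lay wholly above the 3 untreated ones in 17 members and wholly below in 15, where 49.4% of all genes tested had groups that did not overlap (24.5% higher and 25.0% lower).

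**Figure D1:**
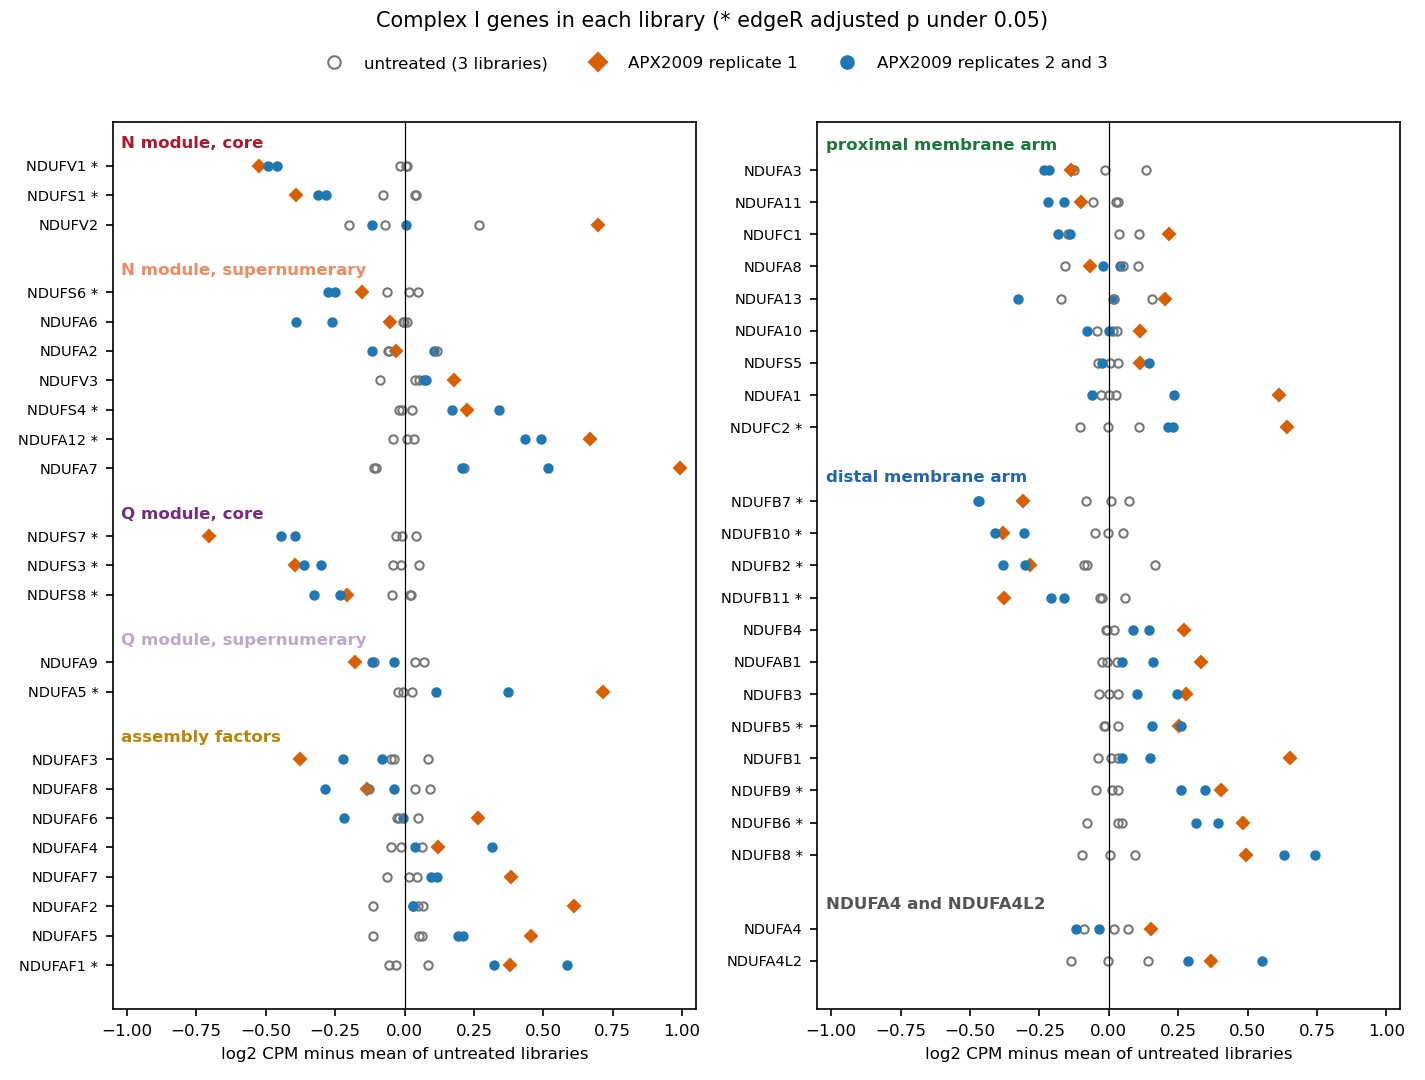
Each point is 1 library: log2 CPM minus the mean of the untreated libraries (horizontal) for 46 of the members tested, by role, with untreated libraries as open grey circles, APX2009 replicate 1 as orange diamonds, replicates 2 and 3 as blue circles, and a star at each of the 19 called members. In NDUFV1, NDUFS1, NDUFS3, NDUFS7 and NDUFS8 all 3 treated points lie left of the untreated ones, while the supernumerary subunits hold both directions.

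The NADH-oxidising N module had both directions among its 10 members, with a median log2 change of 0.05. In it 2 were higher and 3 lower, where 17.2% of all genes tested were higher and 17.4% lower. NDUFV1, the core subunit that binds NADH and the flavin (ENSG00000167792, chromosome 11, 67605653 to 67612554), was at 150.2, 147.4 and 149.7 CPM in the untreated and 103.7, 108.4 and 106.1 CPM in the treated libraries. The groups were far apart, and the 3 values within each group lay close together. Its log2 change was -0.49 ± 0.06 (SE; edgeR adjusted p = 1.50e-04), and -0.48 without APX2009 replicate 1 (edgeR adjusted p = 1.26e-05). NDUFS1, the largest core subunit, which carries iron-sulphur clusters next to the flavin, was at 133.0, 144.6 and 144.1 CPM untreated and 107.0, 113.2 and 115.5 CPM treated. Every treated value was below every untreated one, and the log2 change was -0.33 ± 0.06 (edgeR adjusted p = 0.00317).

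NDUFV2, the remaining core subunit of the N module and also an iron-sulphur protein, did not pass. It was at 9.57, 13.3 and 10.5 CPM untreated and 17.8, 10.1 and 11.0 CPM treated, so that only APX2009 replicate 1 lay above the untreated range. Its log2 difference of 0.23 ± 0.21 (edgeR adjusted p = 0.419) turned to -0.08 without that library (edgeR adjusted p = 0.703). The gene shares 28.4% of its exon bases with AP005263.1 and has a pseudogene copy, NDUFV2P1, which held 37 to 72 counts per library, and reads that fit more than 1 of these cannot be assigned with certainty.

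Among the N module's supernumerary subunits, NDUFA12, which in assembly takes the place of the factor NDUFAF2, rose. It was at 32.2, 31.6 and 30.5 CPM untreated and 50.0, 44.3 and 42.5 CPM treated, with no overlap. The log2 change was 0.54 ± 0.08 (edgeR adjusted p = 4.96e-04), and 0.46 without APX2009 replicate 1. NDUFS4, which stabilises the N module on the arm and is mutated in Leigh syndrome, was at 22.6, 22.0 and 21.9 CPM untreated and 25.9, 25.0 and 28.1 CPM treated. The groups did not overlap, and the rise of 0.25 ± 0.08 (edgeR adjusted p = 0.0294) was among the least stable: it did not pass without any 1 of the untreated libraries or without APX2009 replicate 3 (edgeR adjusted p from 0.0610 to 0.104), nor with DESeq2 (adjusted p = 0.0927) or with no filter on low counts (edgeR adjusted p = 0.0757).

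NDUFS6, a zinc-binding subunit needed late in assembly of the N module, fell. It was at 80.3, 86.8 and 85.0 CPM untreated and 75.5, 69.3 and 70.6 CPM treated, with the groups apart. The log2 change was -0.23 ± 0.06 (edgeR adjusted p = 0.0198), and it did not pass without untreated replicate 2, untreated replicate 3 or APX2009 replicate 2 (edgeR adjusted p from 0.0838 to 0.104). NDUFA6, which binds the acyl carrier protein NDUFAB1, gained a call without APX2009 replicate 1. Its values were 37.7, 38.0 and 37.8 CPM untreated and 36.5, 31.6 and 28.8 CPM treated, with APX2009 replicate 1 nearest to the untreated range. The log2 difference of -0.23 ± 0.09 did not pass (edgeR adjusted p = 0.0698), while without APX2009 replicate 1 it was -0.33 (edgeR adjusted p = 0.00239).

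The other N module members, NDUFV3, NDUFA2 and NDUFA7, did not pass. NDUFA7 had a log2 difference of 0.63 ± 0.28 (edgeR adjusted p = 0.110), or 0.37 without APX2009 replicate 1 (edgeR adjusted p = 0.376), at 0.884 to 1.12 CPM untreated and 1.11 to 1.95 CPM treated, which were 20 to 52 counts per library. Its groups overlapped, and it shares 32.3% of its exon bases with the gene model AC010323.1 on the same strand.

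The Q module, where ubiquinone is reduced, was the part of the enzyme with the lowest median, -0.19 over 6 members. Of these 3 fell and 1 rose, where 17.4% of all genes tested fell and 17.2% rose. NDUFS7 carries the last iron-sulphur cluster before ubiquinone (ENSG00000115286, chromosome 19, 1383527 to 1395589). It was at 43.7, 41.5 and 42.1 CPM untreated and 26.0, 32.3 and 31.1 CPM treated. All 3 treated values were far below the untreated ones, with APX2009 replicate 1 the lowest. The log2 change of -0.51 ± 0.09 (edgeR adjusted p = 0.00134) was the largest fall among the members, and was -0.42 without APX2009 replicate 1 (edgeR adjusted p = 2.57e-04).

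NDUFS3, a core subunit that links the modules of the matrix arm, was at 30.4, 31.8 and 29.7 CPM untreated and 23.3, 24.8 and 23.8 CPM treated. The groups did not overlap, and the log2 change was -0.35 ± 0.07 (edgeR adjusted p = 0.00363). It shares 19.6% of its exon bases with PTPMT1 on the same strand, which itself had a log2 change of -0.36 (edgeR adjusted p = 0.0249), so part of the reads cannot be told apart. NDUFS8, a core subunit with iron-sulphur clusters on the path to NDUFS7, was at 60.6, 63.5 and 63.3 CPM untreated and 54.1, 53.2 and 49.9 CPM treated, without overlap. Its fall of -0.25 ± 0.06 (edgeR adjusted p = 0.00971) did not pass without untreated replicate 2 or 3 (edgeR adjusted p = 0.0588 and 0.0612).

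The supernumerary subunit NDUFA5 of the same module went the other way. It was at 24.1, 24.7 and 23.8 CPM untreated and 39.8, 31.4 and 26.2 CPM treated, with APX2009 replicate 1 the highest and the groups apart. The log2 change was 0.42 ± 0.13 (edgeR adjusted p = 0.0282) and 0.25 without APX2009 replicate 1 (edgeR adjusted p = 0.0378), so that library moved its size by over 1.5 times. It did not pass without any 1 of the untreated libraries or without APX2009 replicate 2 (edgeR adjusted p from 0.0528 to 0.0928). NDUFA9, the subunit of this module that binds a nicotinamide nucleotide, had overlapping groups and did not pass (log2 difference -0.11 ± 0.08; edgeR adjusted p = 0.303).

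In the proximal membrane arm, next to the Q module, 1 of the 9 nuclear members rose and none fell, and the median log2 change was -0.02. The shares over all genes tested were 17.2% higher and 17.4% lower. Whether this arm differs from them was not tested. The single rise was NDUFC2, a membrane subunit, at 16.5, 14.2 and 15.2 CPM untreated and 23.8, 17.7 and 17.9 CPM treated. APX2009 replicate 1 was the highest and the groups did not overlap. The log2 change of 0.38 ± 0.13 (edgeR adjusted p = 0.0397) was 0.22 without APX2009 replicate 1 and no longer passed (edgeR adjusted p = 0.0752), nor did it pass without any 1 untreated library (edgeR adjusted p from 0.0595 to 0.141). The other 8 (NDUFA1, NDUFA3, NDUFA8, NDUFA10, NDUFA11, NDUFA13, NDUFC1 and NDUFS5) did not pass, with NDUFA3 and NDUFA11 wholly below the untreated values and the other 6 overlapping them. Of these, NDUFA1, with a log2 difference of 0.29, passed without APX2009 replicate 3 (0.44; edgeR adjusted p = 0.0236) and came to 0.095 without replicate 1 (edgeR adjusted p = 0.497).

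The distal membrane arm is built around the ND4 and ND5 proton pumps by the NDUFB subunits and NDUFAB1. Of its 12 members 4 rose and 4 fell, where 17.2% of all genes tested rose and 17.4% fell. The groups of all 12 were apart, 8 higher and 4 lower. The groups of 49.4% of all genes tested were apart, 24.5% higher and 25.0% lower. This arm also has the most members of the parts of the enzyme, and its calls were not tested against theirs. NDUFB8 (ENSG00000166136, chromosome 10, 100523740 to 100530000), whose protein is widely used as a marker of assembled complex I, was at 24.6, 21.5 and 23.1 CPM untreated and 32.5, 35.7 and 38.6 CPM treated. The groups were well separated, with APX2009 replicate 1 the lowest of the treated. The log2 change was 0.62 ± 0.09 (edgeR adjusted p = 4.32e-04), and 0.69 without APX2009 replicate 1 (edgeR adjusted p = 2.77e-05). Of its exon bases 16.3% overlap HIF1AN on the opposite strand, which had a log2 difference of 0.06 (edgeR adjusted p = 0.545), and 33.8% a read-through gene model with 19 counts over all libraries.

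NDUFB9, a subunit of the LYR family that binds NDUFAB1, was at 70.7, 73.7 and 74.8 CPM untreated and 96.7, 92.8 and 87.6 CPM treated. The groups were apart, and the log2 change was 0.34 ± 0.06 (edgeR adjusted p = 0.00240). NDUFB6 was at 12.5, 13.5 and 13.6 CPM untreated and 18.5, 17.3 and 16.4 CPM treated, without overlap, a rise of 0.40 ± 0.09 (edgeR adjusted p = 0.00730). The fourth rise was the smallest of this arm: NDUFB5, at 50.4, 48.8 and 48.7 CPM untreated and 58.7, 59.0 and 54.8 CPM treated, had a log2 change of 0.22 ± 0.06 (edgeR adjusted p = 0.0170) and did not pass without untreated replicate 2, untreated replicate 3 or APX2009 replicate 2 (edgeR adjusted p from 0.0557 to 0.0874).

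Of the falls in the distal arm, NDUFB7 and NDUFB10 code for subunits with paired cysteines that face the intermembrane space. NDUFB7 was at 27.1, 28.8 and 30.2 CPM untreated and 23.1, 20.7 and 20.7 CPM treated, a log2 change of -0.42 ± 0.08 (edgeR adjusted p = 0.00307). NDUFB10 was at 70.4, 75.4 and 72.6 CPM untreated and 55.9, 58.8 and 54.7 CPM treated, a log2 change of -0.37 ± 0.06 (edgeR adjusted p = 0.00132). In both, no treated value reached the untreated range, with or without APX2009 replicate 1.

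NDUFB2 was at 25.9, 30.6 and 25.7 CPM untreated and 22.4, 22.1 and 21.0 CPM treated. Untreated replicate 2 was the highest, and the log2 change of -0.33 ± 0.09 (edgeR adjusted p = 0.0168) did not pass without it (-0.23; edgeR adjusted p = 0.0951). BRAF on the opposite strand overlaps 27.9% of the exon bases of NDUFB2, and it rose by 0.36 on the log2 scale (edgeR adjusted p = 0.0205). NDUFB11 was at 45.0, 47.9 and 45.2 CPM untreated and 35.5, 41.2 and 39.9 CPM treated, a log2 change of -0.25 ± 0.07 (edgeR adjusted p = 0.0264). This call was lost without any 1 untreated library (edgeR adjusted p from 0.0502 to 0.113), and 44.9% of the gene's exon bases overlap RBM10 on the opposite strand, which fell by 0.23 on the log2 scale (edgeR adjusted p = 0.0144). The remaining members of the arm, NDUFB1, NDUFB3, NDUFB4 and NDUFAB1, did not pass, with log2 differences of 0.17 to 0.31. NDUFB3 passed without APX2009 replicate 2 (0.27; edgeR adjusted p = 0.0332) and NDUFAB1, the mitochondrial acyl carrier protein, without APX2009 replicate 3 (0.25; edgeR adjusted p = 0.0308). Without APX2009 replicate 1 their log2 differences were 0.17 and 0.10, and neither passed.

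NDUFAF1 was the assembly factor that rose. With ACAD9, ECSIT and TMEM126B it forms a complex that assembles part of the membrane arm. It was at 10.8, 11.7 and 10.6 CPM untreated and 14.3, 13.8 and 16.5 CPM treated, with no overlap. The log2 change was 0.43 ± 0.11 (edgeR adjusted p = 0.0103), 0.45 without APX2009 replicate 1, and 0.41 without untreated replicate 3, where it did not pass (edgeR adjusted p = 0.0537).

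The other 7 NDUFAF genes did not pass. NDUFAF2, the factor that NDUFA12 replaces, was at 16.5, 18.6 and 18.4 CPM untreated and 27.2, 18.2 and 18.2 CPM treated, so its log2 difference of 0.25 (edgeR adjusted p = 0.217) came down to 0.02 without APX2009 replicate 1. The factors NDUFAF3 and NDUFAF4, which work together on the Q module, had log2 differences of -0.22 (edgeR adjusted p = 0.0720) and 0.16 (edgeR adjusted p = 0.279). NDUFAF3 passed without APX2009 replicate 2 (-0.29; edgeR adjusted p = 0.0337).

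NDUFAF5 hydroxylates NDUFS7 and works with NDUFAF8. These 2 had log2 differences of 0.29 (edgeR adjusted p = 0.0855) and -0.15 (edgeR adjusted p = 0.299). NDUFAF7, a methyltransferase, had 0.21 (edgeR adjusted p = 0.188), and NDUFAF6, at 3.45 to 4.83 CPM over all 6 libraries, had 0.03 (edgeR adjusted p = 0.893). NDUFAF6 turned to -0.11 without APX2009 replicate 1 (edgeR adjusted p = 0.642).

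NDUFA4 carries a complex I name but is now counted as a subunit of complex IV. Its values of 71.0, 76.4 and 79.2 CPM untreated and 83.9, 69.5 and 73.6 CPM treated overlapped (edgeR adjusted p = 0.981). Its paralogue NDUFA4L2, a known target of hypoxia signalling, was at 2.10, 2.33 and 1.91 CPM untreated and 2.73, 2.58 and 3.11 CPM treated. These groups did not overlap, but the log2 difference of 0.40 ± 0.18 did not pass (edgeR adjusted p = 0.103).

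Leaving out APX2009 replicate 1 changed 2 calls among the 47 members. Without it 8 were higher and 11 lower (edgeR), where 38.1% of 14987 genes tested passed, 18.9% higher and 19.1% lower. Of the original calls 8 rises and all 10 falls were kept, NDUFC2 was lost, and NDUFA6 was added as a fall. Among the kept falls not yet given without it, NDUFS1 was at -0.30, NDUFS3 at -0.33, NDUFS8 at -0.28, NDUFS6 at -0.27, NDUFB7 at -0.47, NDUFB10 at -0.36, NDUFB2 at -0.35 and NDUFB11 at -0.19 on the log2 scale. The kept rises of NDUFS4, NDUFB9, NDUFB6 and NDUFB5 were 0.26, 0.30, 0.35 and 0.21. The median over the members became -0.00, and the core subunits kept their 5 falls with a median of -0.30. The median of the assembly factors came down from 0.18 to 0.06, that of the distal arm from 0.20 to 0.11, and that of the N module from 0.05 to -0.04.

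**Figure D2:**
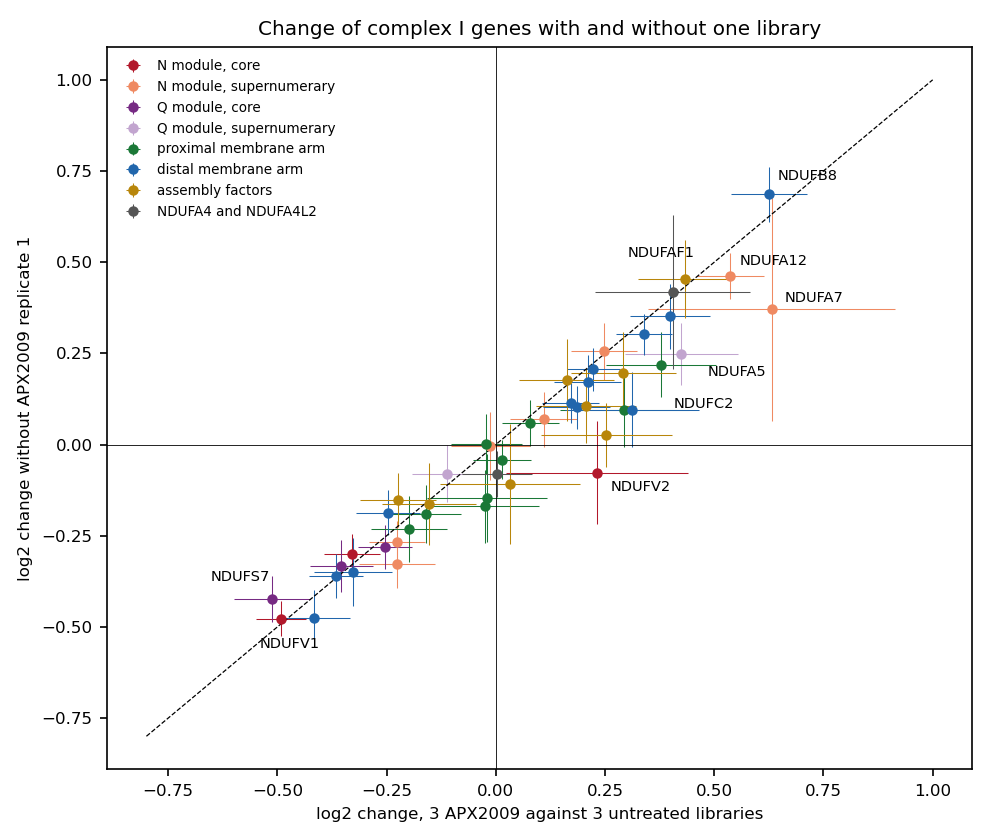
Log2 change of 46 members with all 6 libraries (horizontal) and without APX2009 replicate 1 (vertical), coloured by role, with bars of 1 SE and the dashed line where both are equal. NDUFV2, NDUFC2, NDUFA5 and NDUFA7 lie below the line, and the called core subunits lie near it, with NDUFS7 at -0.51 and -0.42 the farthest of these.

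The library itself showed this in the members' levels. In APX2009 replicate 1, 28 of the 47 members lay above the range of the 3 untreated libraries and 17 below, against 19 above and 18 below in replicate 2 and 19 above and 21 below in replicate 3. It was the treated library farthest from the untreated mean for 29 members, replicate 2 for 5 and replicate 3 for 13. The members' median log2 difference from the untreated mean was 0.18 in APX2009 replicate 1, and 0.03 and -0.02 in the other treated libraries. The counts of members outside the untreated range, or farthest from its mean, were not made over all genes tested. Whether they are particular to the members was not tested.

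By role, the core subunits had medians of -0.39, -0.30 and -0.33 in the 3 treated libraries, and so were low in each. The assembly factors had 0.32, 0.03 and 0.07, and the distal arm 0.28, 0.09 and 0.15, with APX2009 replicate 1 the highest in both. The median of all genes tested was 0.01 in each of the 3 libraries.

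Levels between genes were compared per length, as CPM per kilobase of exon (RPKM). NDUFS5 had the highest level, 116.3 ± 2.95 RPKM untreated and 122.9 ± 7.51 RPKM treated (SD, n = 3). NDUFB10, NDUFS6 and NDUFB7 followed with 68.0 ± 2.35, 57.9 ± 2.28 and 54.0 ± 2.90 RPKM untreated and 52.8 ± 1.97, 49.5 ± 2.25 and 40.5 ± 2.64 RPKM treated. These 3 were among the most abundant members and all 3 fell. The lowest were NDUFAF6 at 0.627 ± 0.0190, NDUFA7 at 0.682 ± 0.0944 and NDUFA4L2 at 0.754 ± 0.0743 RPKM untreated. NDUFV1 and NDUFV2, which form a pair in the enzyme, were at 29.5 ± 0.289 and 4.09 ± 0.710 RPKM untreated. NDUFV2 and NDUFA7 share 28.4% and 32.3% of their exon bases with other gene models on the same strand. Reads there cannot be assigned with certainty, so these 2 levels are uncertain. Lengths are the union of all annotated exons (9851 bases for NDUFA5), whichever of them are used in these cells.

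**Figure D3:**
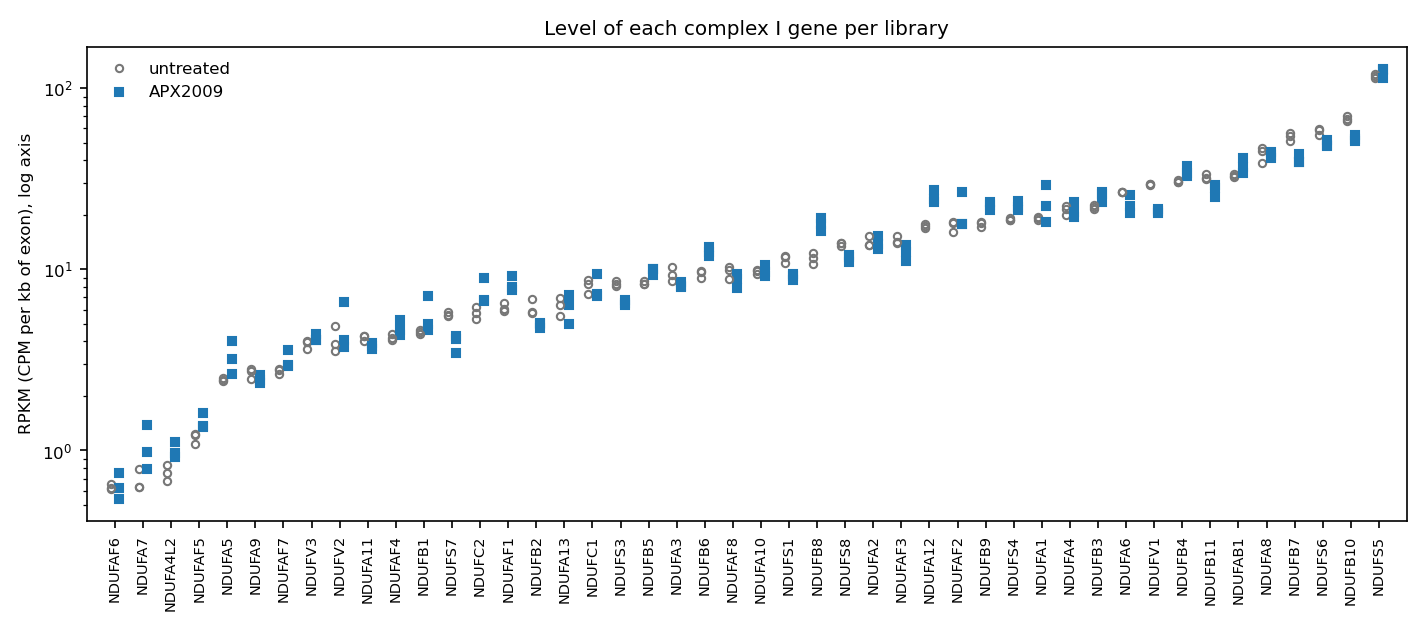
Level of 46 members in each library (RPKM, log axis), untreated libraries as open circles and APX2009 libraries as squares, ordered by the untreated mean. The untreated means run from 0.627 RPKM for NDUFAF6 to 116.3 RPKM for NDUFS5, and the difference between the groups is small beside that range.

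The called members also differed in base composition, which the naming rule did not use. Over their annotated transcripts, the 9 members that rose had a median GC content of 43.6% (36.0% to 54.6%), the 10 that fell 59.1% (43.1% to 65.0%) and the 28 others 48.4%. At the ends of this range stood NDUFA5 with 36.0%, which rose, and NDUFB7 with 65.0%, which fell. NDUFS1 with 43.1% and NDUFB2 with 48.6% were exceptions among the falls, and NDUFB8 with 54.6% among the rises. Over all genes tested those called higher had a median of 46.6%, those called lower 54.4% and the rest 49.7%.

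Across the 47 members, Spearman's rho of GC content and log2 change was -0.49, and -0.49 without APX2009 replicate 1. Across 14721 genes tested it was -0.19 and -0.11. These are descriptions across genes, which share the libraries and are not independent. With GC content and exon length as an offset in the edgeR fit, rho was -0.39 over the members and -0.02 over all genes, and 7 members were higher and 10 lower, where 38.6% of genes passed (19.2% higher and 19.4% lower). Of the 19 calls 15 were kept. The rises of NDUFS4 (0.13; edgeR adjusted p = 0.264), NDUFB5 (0.14; 0.0712) and NDUFC2 (0.31; 0.0594) and the fall of NDUFS8 (-0.13; 0.194) were lost, while NDUFA6 passed as lower (-0.31; 0.00650) and NDUFA4L2 as higher (0.54; 0.0361). Of the 7 core subunits 4 were then lower and none higher, with a median of -0.33.

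**Figure D4:**
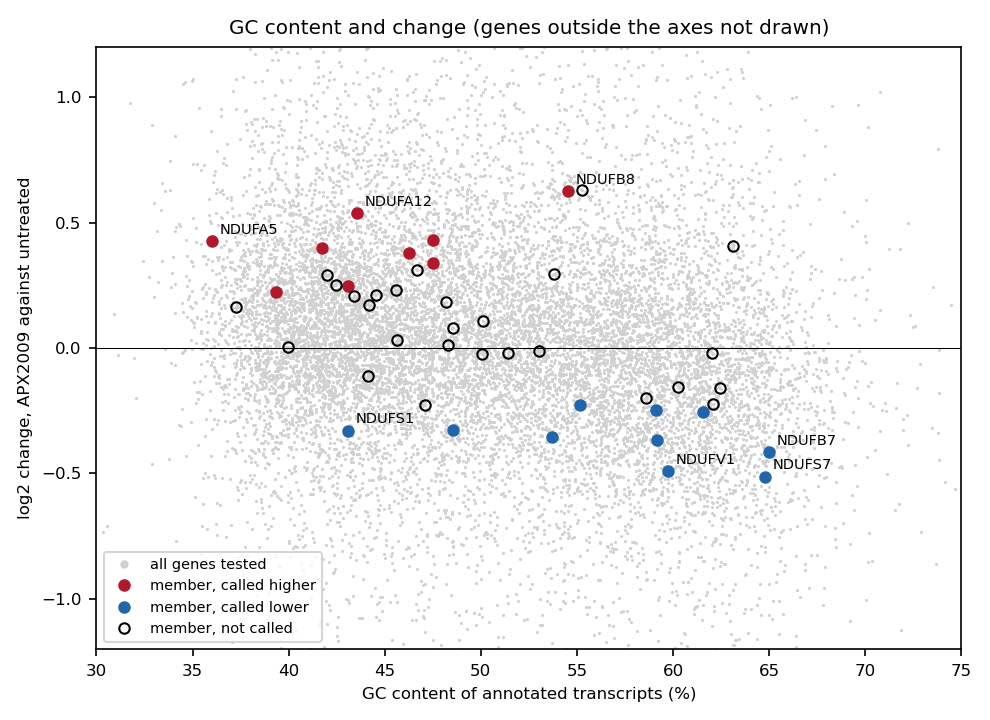
GC content of the annotated transcripts (percent, horizontal) against log2 change (vertical) for 46 members, red where called higher, blue where called lower and open where not called, over all genes tested as small grey points (genes outside the axes not drawn). The members that fell have a median of 59.1% and those that rose 43.6%, with NDUFS1, NDUFB2 and NDUFB8 away from the rest of their call.

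Promoters were searched for 6 motifs linked to respiratory chain genes, in windows of 250 bases before to 50 after each RefSeq start site (GRCh38.p14), on both strands, with overlaps between motifs allowed. Of the 48 members 40 had a window. The longest of the searched motifs without free letters, AAGATGGCG, the site of the factor YY1, was in 7 of 40 members (17.5%), against 4.67% of 10228 tested genes and 2.14% of 27305 genes with a window. The 7 are shown because all lie on the gene's own strand and begin 11 to 26 bases after the start site used here. The NDUFAF8 site begins 17 bases from the start used here and 10 from another of its starts. NDUFB8 has 2 windows, and its site lies in only 1 of them, 18 bases after that start. In 6 of the 7 sites the ATG in the motif is an annotated start codon (in NDUFAF8 it is not). Each is given 5′ to 3′ on the gene's strand, with the motif in capitals.
NDUFB8 (chr10:100529835-100529864, minus strand, rose): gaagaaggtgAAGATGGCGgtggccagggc
NDUFS4 (chr5:53560650-53560679, plus strand, rose): tgcctgcagcAAGATGGCGgcggtgtcaat
NDUFS7 (chr19:1383914-1383943, plus strand, fell): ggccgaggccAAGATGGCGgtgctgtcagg
NDUFA6 (chr22:42090728-42090757, minus strand, did not pass): atgctttggcAAGATGGCGgggagcggcgt
NDUFA7 (chr19:8321342-8321371, minus strand, did not pass): tcgcggacggAAGATGGCGtccgccacccg
NDUFA9 (chr12:4649114-4649143, plus strand, did not pass): attgtgggaaAAGATGGCGgctgccgcaca
NDUFAF8 (chr17:81239317-81239346, plus strand, did not pass): ggacggacctAAGATGGCGgcctccagggg

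The genes with this motif did not share a direction: NDUFB8 had the largest rise that passed and NDUFS7 the largest fall. The ETS motif CCGGAAG was in 3 of the 10 members that fell and in 0 of the 6 that rose and had a window, in 7 of 40 members (17.5%) and in 22.1% of tested genes. Its 4 sites in the falling members are shown with the motif in capitals, on the strand that reads it.
NDUFS1 (chr2:206159585-206159614, plus strand, gene on minus): cgcagttccgCCGGAAGtggccccagcctc
NDUFS3 (chr11:47578981-47579010, plus strand, gene on plus): ccacgtccgcCCGGAAGaagatctgctgca
NDUFS3 (chr11:47578959-47578988, minus strand, gene on plus): ggacgtggagCCGGAAGcggaggttccggg
NDUFB7 (chr19:14572071-14572100, minus strand, gene on minus): cctaaatgacCCGGAAGctgtgtctgactg

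The motif of nuclear respiratory factor 1 (NRF1) was in 7 of 40 members (17.5%) and 13.2% of tested genes. Of these 7 only NDUFA12 was called, as a rise, and none of the falling members held it. The GC box GGGCGG was in 26 of 40 members (65%, against 76.8% of tested genes), in 8 of the 10 that fell and 3 of the 6 that rose. The antioxidant response element TGACNNNGC was in 11 of 40 (27.5%, against 19.6%) and the CCAAT box in 12 of 40 (30%, against 42.8%). A match is a description of letters in this window and not a bound site.

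The partners of these proteins were taken from lists of the other complex I genes and of the other respiratory complexes. Over all genes tested 17.2% rose and 17.4% fell. Of 11 complex I assembly factors named otherwise, 2 fell and none rose (median log2 change -0.10), while without APX2009 replicate 1 COA1 also rose (0.27; edgeR adjusted p = 0.00246). ACAD9, the partner of NDUFAF1, was at 45.5, 38.7 and 43.2 CPM untreated and 34.0, 33.0 and 28.0 CPM treated, without overlap, a log2 change of -0.42 (edgeR adjusted p = 0.00558). DMAC1, which acts on the distal arm, fell by 0.29 on the log2 scale (edgeR adjusted p = 0.0412). The third by p, FOXRED1, a factor of mid to late assembly, had -0.30 and did not pass (edgeR adjusted p = 0.0771).

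The 7 mitochondrially encoded ND subunits had a median log2 change of 0.87, but they varied widely within groups. Summed, they took 2725 to 7305 CPM of the untreated and 6476 to 13008 CPM of the treated libraries (on unscaled library sizes), so the groups overlapped, and APX2009 replicate 1 held the highest share of mitochondrially encoded counts (3.60%, against 0.789% to 2.23% in the other 5 libraries). By edgeR 1 passed, MT-ND6 (1.21 ± 0.40; edgeR adjusted p = 0.0384), while limma voom called 3 and DESeq2 0. Without APX2009 replicate 1 edgeR called 0 of 7 (1 at an unadjusted p under 0.05), and the median was 0.54.

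The nuclear subunits of the other complexes also went in both directions, where 17.2% of all genes tested rose and 17.4% fell. In complex II, succinate dehydrogenase, 2 of 4 rose and none fell: SDHD by 0.42 (edgeR adjusted p = 0.00153) and SDHB by 0.23 (edgeR adjusted p = 0.0385). In complex III 3 of 9 fell and none rose, and these were UQCRC1 (-0.49; edgeR adjusted p = 0.00147), the catalytic cytochrome c1 gene CYC1 (-0.42; edgeR adjusted p = 0.00335) and UQCR11 (-0.32; edgeR adjusted p = 0.00932). In complex IV 1 of 10 passed, COX7A2 as a rise (0.33; edgeR adjusted p = 0.00899). In the ATP synthase 2 of 15 rose, ATP5MC3 (0.22; edgeR adjusted p = 0.0136) and ATP5MC2 (0.25; edgeR adjusted p = 0.0158), and 1 fell, ATP5F1D (-0.30; edgeR adjusted p = 0.00270). Without APX2009 replicate 1 complex IV had 1 rise and 2 falls and the ATP synthase 4 rises and 3 falls, while the counts of complexes II and III were as before. In that fit 18.9% of all genes tested rose and 19.1% fell. The medians of these 4 lists were 0.15, 0.01, 0.02 and 0.06, against -0.33 for the nuclear core subunits of complex I. Whether the core subunits differ from these lists was not tested.

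**Figure D5:**
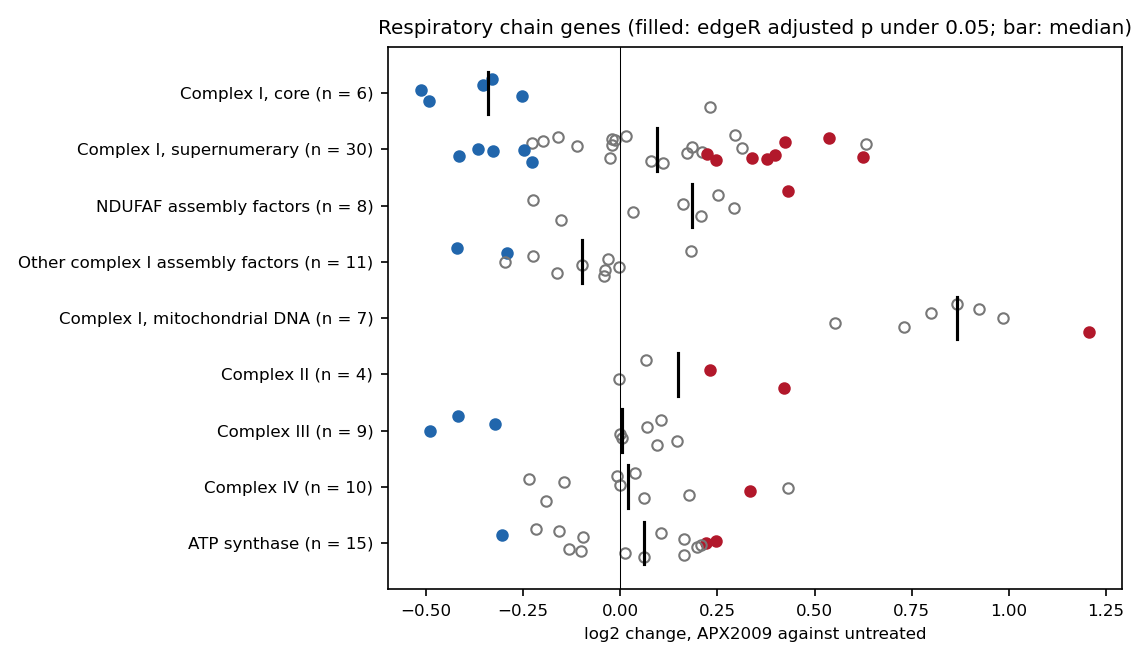
Log2 change of the tested genes (points, filled blue or red where called lower or higher by edgeR) in groups of complex I genes and in complexes II, III and IV and the ATP synthase, with the median of the points drawn as a vertical bar. The 6 core subunits drawn have the lowest median, -0.34, and the mitochondrially encoded subunits the highest, 0.87.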

How the data were processed

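RNA of 6 OE33 libraries (3 untreated, 3 with 15 µM APX2009 for 24 h) was analysed from the deposited raw counts per Ensembl gene, which the authors had not normalized. Trimmomatic 0.36, STAR 2.5.2b, Subread 1.5.2, featureCounts and the build GRCh38 are named in the submitters' processing notes. Strandedness, the annotation release and the order of steps were not given in the sources used here, so reads of overlapping genes cannot be told apart.

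Groups and replicate numbers came from the sample titles. Library sizes and tests left out the 92 ERCC spike-ins. Genes passing filterByExpr were scaled by TMM and tested for treatment with edgeR 4.0.16 (R 4.3.3), adjusted over all 14773 genes tested, and called at an adjusted p under 0.05. P-values measure the spread between these cultures of 1 line. SE came from the F statistic. CPM used TMM-adjusted library sizes. Symbols, coordinates, exon lengths and GC content came from GENCODE 29 (57447 of 58051 IDs matched).

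The members and lists were chosen with earlier results of these data known. Named with each library's value were called members, up to 4 per group by p, and uncalled core subunits. The rule also took the uncalled assembly factors, of which only NDUFAF2 is given with each library's value. Of the members, 1 that this rule takes is not reported here by itself and is not drawn, but is in the counts and medians. From each other list came up to 3 genes by p. Other members, among them NDUFA6, NDUFA7 and the remaining NDUFB genes, were named after their values were seen. So were COA1, NRF1, PPRC1, ESRRA, CD68 and the other cell type and mitochondrial content markers named. DESeq2 1.42.0, limma 3.58.1 (voom) and the other alternatives are in the closing section. The fit was tested on simulated data.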

Additional observations from a re-analysis of the deposited data

How the results depend on the processing

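Of 18 alternatives, scaling by the ERCC spike-in total moved the results most: 0 members were higher and 0 lower by edgeR, and the median log2 change was 0.16, against 9, 10 and 0.03. The ERCC share itself differed between treated libraries (0.316% to 0.758%), and none of the 19 called members turned direction. At an adjusted p under 0.01, 4 members were higher and 7 lower, where 9.95% and 10.7% of all genes were. Leaving out 1 library at a time gave 4 to 10 higher, 6 to 11 lower and a median of -0.00 to 0.11. Fewest were called without untreated replicate 2 (5 and 6) or 3 (4 and 7), where the share of all genes called was also lowest (24.1% and 23.1%, against 27.2% to 38.1% without another library). DESeq2 lost 1 call, NDUFS4. RLE factors, total counts, both other filters, DESeq2 (8 and 10), voom (9 and 10), leaving out mitochondrial and the 20 most counted genes, and the offset for GC content and length (7 and 10) gave 7 to 10 higher and 10 to 12 lower. Of the called members, 10 lost their call with ERCC scaling and in no other alternative.

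Among the called members, core subunits and assembly factors, 2 that were not called turned sign. Leaving out 1 library at a time gave NDUFV2 -0.077 to 0.39 and NDUFAF6 -0.11 to 0.14, both lowest without APX2009 replicate 1, and NDUFAF6 was -0.018 with the offset. Of the 19 other members, 7 near 0, NDUFA4 among them, turned sign in some alternative, none with a call. The causes were not tested. With the replicate number as a block, 9 members were higher and 12 lower (median 0.02), and all 19 calls were kept. The libraries share only a number: deviations of same-numbered libraries correlated at 0.137, 0.0746 and 0.00303, and APX2009 replicate 3 correlated best with untreated replicate 2 (0.111). NDUFA7 had 20 to 52 counts per library and shares 32.3% of its exon bases with AC010323.1 on the same strand. The cause of its low counts was not tested.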

Other observations

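Genes that control respiratory chain transcription in the nucleus or the mitochondrion were also measured. Of 11 such regulators, 1 rose and 4 fell (edgeR), with a median log2 change of -0.09. Over all genes tested 17.2% rose and 17.4% fell. PPARGC1A, a coactivator of mitochondrial biogenesis, was at 5.63, 6.23 and 6.41 CPM untreated and 9.62, 8.44 and 8.53 CPM treated, without overlap, a log2 change of 0.54 (edgeR adjusted p = 0.00618). Its relative PPARGC1B was at 11.5, 14.2 and 13.5 CPM untreated and 8.20, 10.4 and 9.92 CPM treated, a log2 change of -0.46 (edgeR adjusted p = 0.0195). TFB1M, a methyltransferase of mitochondrial ribosomal RNA, fell by 0.41 on the log2 scale (edgeR adjusted p = 0.0203). The gene of NRF1, the factor whose motif was searched in the promoters above, fell by 0.27 (edgeR adjusted p = 0.0239). The remaining fall was that of PPRC1 (-0.26; edgeR adjusted p = 0.0299). The calls of all these genes were kept without APX2009 replicate 1, where 2 of the 11 rose and 4 fell. The added rise was ESRRA (0.28; edgeR adjusted p = 0.00149). In that fit 18.9% of all genes tested rose and 19.1% fell.

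Of 5 genes often used as markers of mitochondrial content, TOMM40, the pore of the outer membrane translocase, fell by 0.46 on the log2 scale (edgeR adjusted p = 0.00105), from 117.1, 116.8 and 116.1 CPM to 76.3, 87.1 and 91.6 CPM. The other 4, CS, VDAC1, TOMM20 and TIMM23, did not pass. The 59 genes annotated as pseudogenes of complex I members held 47 to 78 counts per library in all, with 64 in APX2009 replicate 1, inside the range of the other libraries.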
